A study of Mus musculus with 6 samples.

Results

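Axon guidance ligands and receptors were examined in RNA of mouse diaphragm muscle at E14.75, across 6 RNA-Seq libraries. The members are all protein-coding genes whose symbol begins with Sema or Plxn, together with Nrp1, Nrp2, the numbered Epha, Ephb, Efna and Efnb genes, Slit1 to Slit3, Robo1 to Robo4, Ntn1, Ntn4, Dcc and Unc5a to Unc5d. This gave 67 of the 23073 genes with a value, and no member was missing from the files. They comprise 7 class 3 semaphorins, 13 membrane semaphorins, 2 neuropilins, 9 plexins, 5 A ephrins, 3 B ephrins, 9 EphA and 5 EphB receptors, 3 Slits, 4 Robos, 2 netrins, and Dcc with the 4 Unc5 receptors.

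The 3 groups of 2 libraries each were sequenced, all from embryos of the same age. The erbB3 WT libraries (labelled 5 and 6) were made from whole diaphragm with an intact erbB3 gene. The erbB3 KO libraries (labelled 1 and 2; "mutant" below) were made from diaphragm of erbB3 mutant embryos, which lack Schwann cells. The Wnt1-Ribotag libraries (labelled TOM, "Ribotag" 1 and 2 below) came from embryos that were wild-type for erbB3 and carried Wnt1-Cre with Ribotag, a Cre-dependent, hemagglutinin-tagged ribosomal protein. Wnt1-Cre is active in the neural crest, whose descendants include Schwann cells but also sensory and sympathetic neurons, so the tag does not mark Schwann cells alone. Tagged ribosomes were immunoprecipitated with an anti-hemagglutinin antibody from diaphragms pooled from a litter, and these libraries started from far less RNA than the whole-muscle libraries. The number of embryos behind each whole-muscle library is not given in the sources used here, so p-values below measure the spread between 2 libraries per group.

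Erbb3 itself did not separate the genotypes: its RPKM (reads normalised to gene length and sequencing depth) was 16.5 and 15.8 in wild-type, 21.5 and 11.9 in mutant and 19.5 and 25.3 in Ribotag libraries, and a value for the whole gene does not tell which exons were read. Sox10, a transcription factor that defines Schwann cells and other crest-derived glia, stood at 2.89 and 2.16 in wild-type, 0.00854 and 0.0178 in mutant, and 15.5 and 32.2 in Ribotag libraries, in the order of the labels. The Ribotag libraries still held RNA of other cells: the summed RPKM of 12 skeletal muscle markers was 2984 and 2763 there, against a range of 2452 to 4359 in whole muscle. Hepatocyte markers summed to 537 and 164 RPKM in wild-type, 18.4 and 10.9 in mutant, and 284 and 202 in Ribotag libraries. Sequencing depth, read from the floor value that a gene without reads carries, lay between 100178863 and 230216660 reads. Within a group, log2 values correlated with r = 0.990 for wild-type, 0.986 for mutant and 0.931 for Ribotag libraries across 14320 genes, which are not independent replicates.

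Axon guidance genes encode cues and the receptors that read them at the growth cone. Class 3 semaphorins are secreted and bind neuropilins, which signal through plexins, whereas most membrane semaphorins bind plexins directly. Ephrins are membrane-bound ligands of the Eph receptor tyrosine kinases, and signals can run into both of the touching cells. Slits repel axons through Robo receptors, and netrins attract or repel them through Dcc and Unc5 receptors. Motor axons, Schwann cells, blood vessels and muscle connective tissue all express members of these families. In whole-muscle RNA, fewer cells of a type and less RNA per cell cannot be told apart.

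For the members that passed a statistical test in any comparison (Ephb2 and Efna5) and for Plxnb3, whose ratio of Ribotag to mutant means was the highest of the members tested (its low mutant values mean that it was tested only because its Ribotag values are high, so the choice is one of display), the 250 bases upstream of the RefSeq gene start are shown, read 5' to 3' on the gene's strand, to place the genes in the genome. All are from the GRCm38.p6 assembly. Capitals mark matches to ACAAAG or ACAATG on either strand, core letters that Sox10 and its relatives are known to bind. Ephb2 lies on the minus strand, window chr4:136836013-136836262, Efna5 on the minus strand, window chr17:62881318-62881567, and Plxnb3 on the plus strand, window chrX:73756853-73757102.
Ephb2: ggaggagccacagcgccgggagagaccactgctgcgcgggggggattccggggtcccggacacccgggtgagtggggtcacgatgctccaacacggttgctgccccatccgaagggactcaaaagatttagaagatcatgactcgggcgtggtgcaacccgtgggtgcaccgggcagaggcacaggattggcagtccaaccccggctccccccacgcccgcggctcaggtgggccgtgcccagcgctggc
Efna5: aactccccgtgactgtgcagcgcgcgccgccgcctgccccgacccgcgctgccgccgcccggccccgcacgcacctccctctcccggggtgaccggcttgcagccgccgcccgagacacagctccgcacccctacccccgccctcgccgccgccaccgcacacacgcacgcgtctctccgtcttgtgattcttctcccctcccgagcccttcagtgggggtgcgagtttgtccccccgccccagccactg
Plxnb3: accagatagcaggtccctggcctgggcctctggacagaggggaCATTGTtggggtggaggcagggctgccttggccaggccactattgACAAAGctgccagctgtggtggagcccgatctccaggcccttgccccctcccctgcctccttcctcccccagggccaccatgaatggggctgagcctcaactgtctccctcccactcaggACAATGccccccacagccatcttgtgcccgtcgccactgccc
The Plxnb3 window held 1 ACAAAG and 2 ACAATG matches, and the other windows held 0. Of 32851 windows of the same length, 25.2% held either motif, and 12 of the 57 members with a window did. GC content was 68.4% for Ephb2, 74.8% for Efna5 and 65.2% for Plxnb3, against a median of 52.4% over all windows.

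Most of the guidance genes were expressed in the diaphragm. The mean RPKM over the 6 libraries was at least 1 for 55 of the 67 members and at least 10 for 11, while 7 members stayed under 0.5 RPKM in every library. All but 1 were above the floor in every library. The exception was Epha6, which was at the floor in Ribotag 2.

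**Figure D1:**
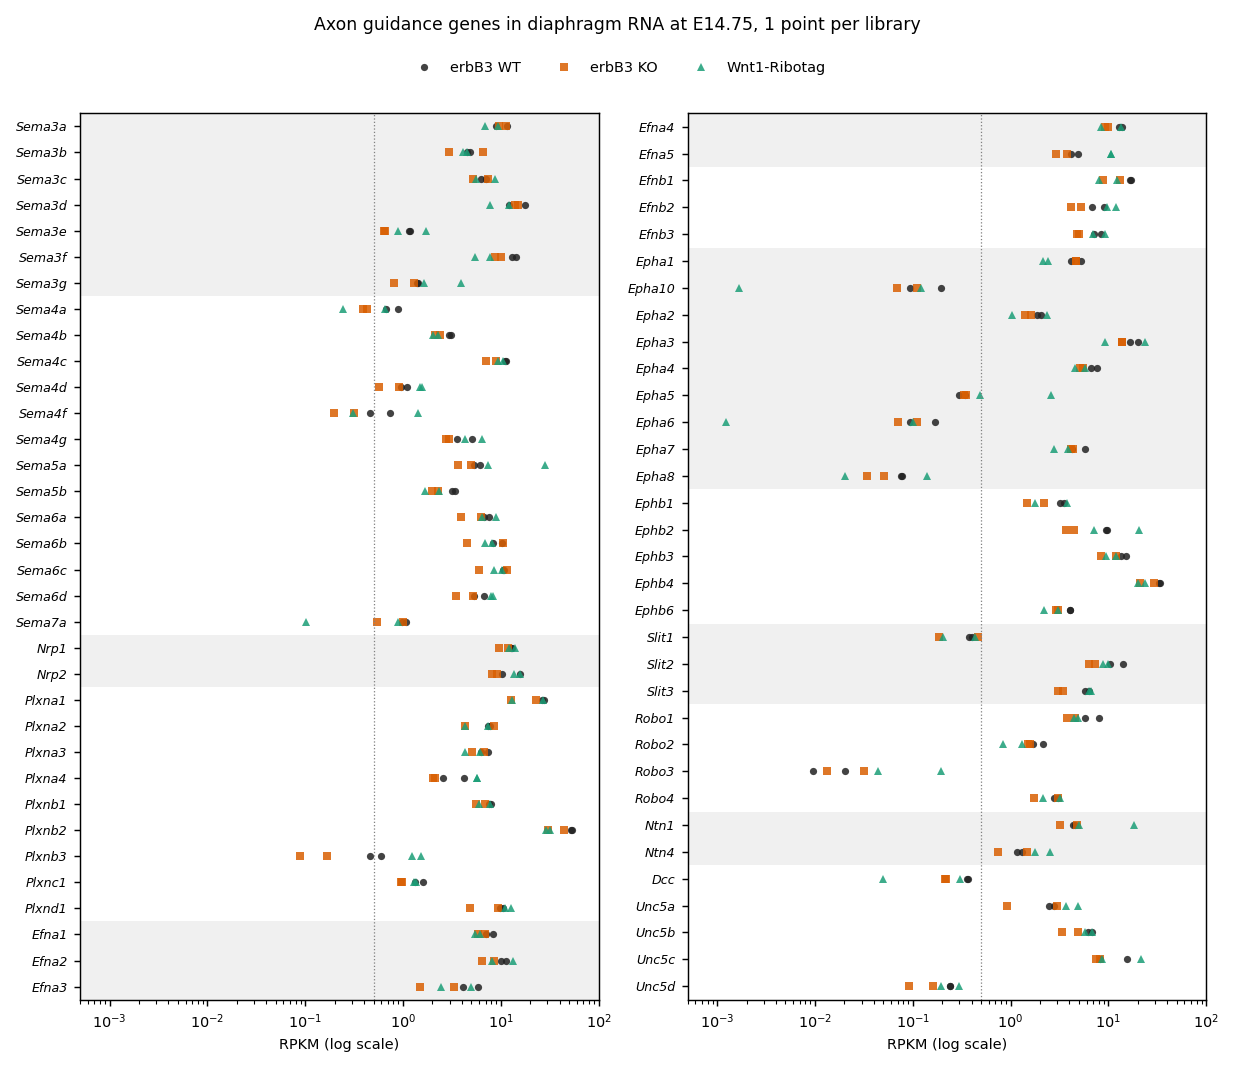
RPKM (log scale) of all 67 axon guidance genes, 1 point per library, with shading by family and a dotted line at 0.5 RPKM. Plxnb2 and Ephb4 are the highest members, and several members (Sema5a, Ntn1, Ephb2, Unc5c) are far apart between both Ribotag libraries.

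Among the receptors of semaphorins, Plxnb2, which binds class 4 semaphorins, was the most abundant member of all, at 53.9 and 52.6 RPKM in wild-type, 44.3 and 30.3 in mutant and 31.5 and 28.8 in Ribotag libraries. Plxna1, a co-receptor with neuropilins, was the next plexin, at 27.5 and 26.6 RPKM in wild-type, 22.7 and 12.9 in mutant and 26.9 and 12.9 in Ribotag libraries. Wild-type values of Plxnb2 lay above all other libraries, while Ribotag 1 reached the wild-type level of Plxna1 and Ribotag 2 the level of mutant 2. Nrp1, which also binds VEGF, ranged from 9.48 RPKM in mutant 2 to 14.1 in Ribotag 2, and its other values were 12.6 and 13.0 in wild-type, 11.9 in mutant 1 and 12.05 in Ribotag 1. Nrp2 was at 10.2 and 15.5 RPKM in wild-type, 9.17 and 8.21 in mutant and 13.6 and 15.9 in Ribotag libraries. For both neuropilins the mutant libraries were lowest.

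Of the secreted semaphorins, Sema3d and Sema3f were highest by the mean over all libraries. Sema3d was measured at 12.2 and 17.9 RPKM in wild-type, 14.9 and 14.1 in mutant and 12.3 and 7.70 in Ribotag libraries, with overlap between wild-type and mutant. Sema3f, a ligand of Nrp2, was at 13.1 and 14.4 RPKM in wild-type, 9.998 and 8.80 in mutant and 7.73 and 5.40 in Ribotag libraries, so the 3 groups did not overlap. Sema3a, the Nrp1 ligand that repels motor axons, was at 8.89 and 11.5 RPKM in wild-type, 9.65 and 11.3 in mutant and 9.27 and 6.98 in Ribotag libraries, and wild-type and mutant values interleaved. Among membrane semaphorins, Sema4c stood at 11.3 and 11.1 RPKM in wild-type, 9.04 and 7.10 in mutant and 9.45 and 10.5 in Ribotag libraries. Sema6c stood at 10.9 and 10.6 RPKM in wild-type, 11.5 and 5.92 in mutant and 10.3 and 8.49 in Ribotag libraries, with mutant 1 above and mutant 2 below all others. The least abundant semaphorins were Sema4a (0.244 to 0.890 RPKM) and Sema4f (0.198 to 1.44 RPKM).

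Ephb4, a receptor of Efnb2 known from veins, was the most abundant Eph receptor, at 33.8 and 33.3 RPKM in wild-type, 29.1 and 20.9 in mutant and 23.8 and 20.0 in Ribotag libraries. Ephb3 was at 13.5 and 15.2 RPKM in wild-type, 11.9 and 8.49 in mutant and 12.02 and 9.49 in Ribotag libraries. For both receptors the wild-type libraries were highest. Epha3 was at 16.8 and 20.0 RPKM in wild-type, 13.9 and 13.8 in mutant and 23.8 and 9.30 in Ribotag libraries, where the replicates enclosed all other values. Epha4, a receptor of both A and B ephrins that sorts limb motor axons, was at 6.70 and 7.68 RPKM in wild-type, 5.18 and 5.49 in mutant and 5.80 and 4.59 in Ribotag libraries, so the wild-type values were highest. At the other end, Epha6, Epha8 and Epha10 did not exceed 0.193 RPKM in any library.

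Efnb1 was the highest ephrin by its mean, at 17.0 and 16.5 RPKM in wild-type, 13.1 and 8.77 in mutant and 12.3 and 8.03 in Ribotag libraries. Among the A ephrins, which are held by a lipid anchor, Efna4 was at 13.7 and 12.8 RPKM in wild-type, 9.34 and 9.84 in mutant and 13.6 and 8.41 in Ribotag libraries. Efna2 was at 11.3 and 10.1 RPKM in wild-type, 8.60 and 6.48 in mutant and 8.18 and 13.5 in Ribotag libraries. Wild-type exceeded mutant without overlap for each of these ephrins, as for 37.4% of all genes tested below. A Ribotag library reached the wild-type range or above for Efna4 and Efna2.

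Robo1, the main Slit receptor by level, was at 5.80 and 7.98 RPKM in wild-type, 4.58 and 3.79 in mutant and 4.89 and 4.40 in Ribotag libraries. The endothelial Robo4 was at 2.79 and 3.09 RPKM in wild-type, 3.08 and 1.74 in mutant and 2.15 and 3.18 in Ribotag libraries, with overlap between all groups. Robo3 did not exceed 0.196 RPKM in any library. Among netrin receptors, Unc5c was at 8.23 and 15.6 RPKM in wild-type, 7.55 and 8.27 in mutant and 21.7 and 8.63 in Ribotag libraries, and all groups overlapped except for mutant and Ribotag. Unc5b was at 6.27 and 6.78 RPKM in wild-type, 4.90 and 3.32 in mutant and 6.77 and 5.74 in Ribotag libraries, with the mutant libraries lowest. Dcc, the receptor through which netrin attracts axons, was low throughout, at 0.363 and 0.369 RPKM in wild-type, 0.215 and 0.217 in mutant and 0.302 and 0.0493 in Ribotag libraries.

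The first comparison, of mutant with wild-type diaphragm, asks how the muscle's RNA differs when Schwann cells are missing. One member, Ephb2, fell past the threshold, and most of the others had small differences under 0 that did not pass. The log2 fold change was under 0 for 56 of the 57 members tested, against 67.0% of all 14052 genes tested. Its median was -0.43 over the members and -0.10 over all genes. The interquartile range of the members was -0.54 to -0.29, and the lowest value was the -1.13 of Ephb2. Class 3 semaphorins had the median nearest to 0, at -0.08, which became 0.03 when libraries were scaled by the median of gene ratios. That scaling brought the median of all genes to -0.0026 and that of the members to -0.33, with 52 of 57 members and 50.5% of all genes under 0, and Sema3b, Sema3c, Sema3d and Epha1 then joined Sema3a above 0.

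Testing used limma on log2(RPKM + 0.5) with Benjamini-Hochberg adjustment over all genes tested and a threshold of 0.05, among genes whose RPKM averaged 0.5 or more in the 4 libraries compared. Fold changes are on that scale and understate the change of low genes. By limma, 1 of the 57 members was called lower, where 0.121% of all genes were, and 0 were called higher, where 0.0498% were. At an unadjusted p under 0.05, 30 members were lower (9.66% of all genes) and 0 were higher (2.38%). Sema4a, 1 of the 30, averaged under 0.5 RPKM in the mutant and passed the filter only through the wild-type libraries. The filter set its direction, so its places in the counts of this comparison, among them the 56 under 0, are no result. All wild-type libraries exceeded all mutant libraries for 41 members, or 71.9%, against 37.4% of all genes, and the reverse held for 0 members, against 12.7%. Of the 10 members not tested for low values, 5 (Sema4f, Plxnb3, Epha8, Dcc and Unc5d) were lower in both mutant libraries than in both wild-type libraries and 5 overlapped. The share over all untested genes is not given, and without the filter 69.5% of all genes were under 0, so these counts are a description only. On the log2(RPKM + 0.5) scale, no tested member differed 2-fold in all 4 pairs of libraries, as 0.399% of all genes did on the lower side. In RPKM itself, the lower wild-type value was 2.08 times the higher mutant value for Ephb2 and 2.73 times for the untested Plxnb3.

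**Figure D2:**
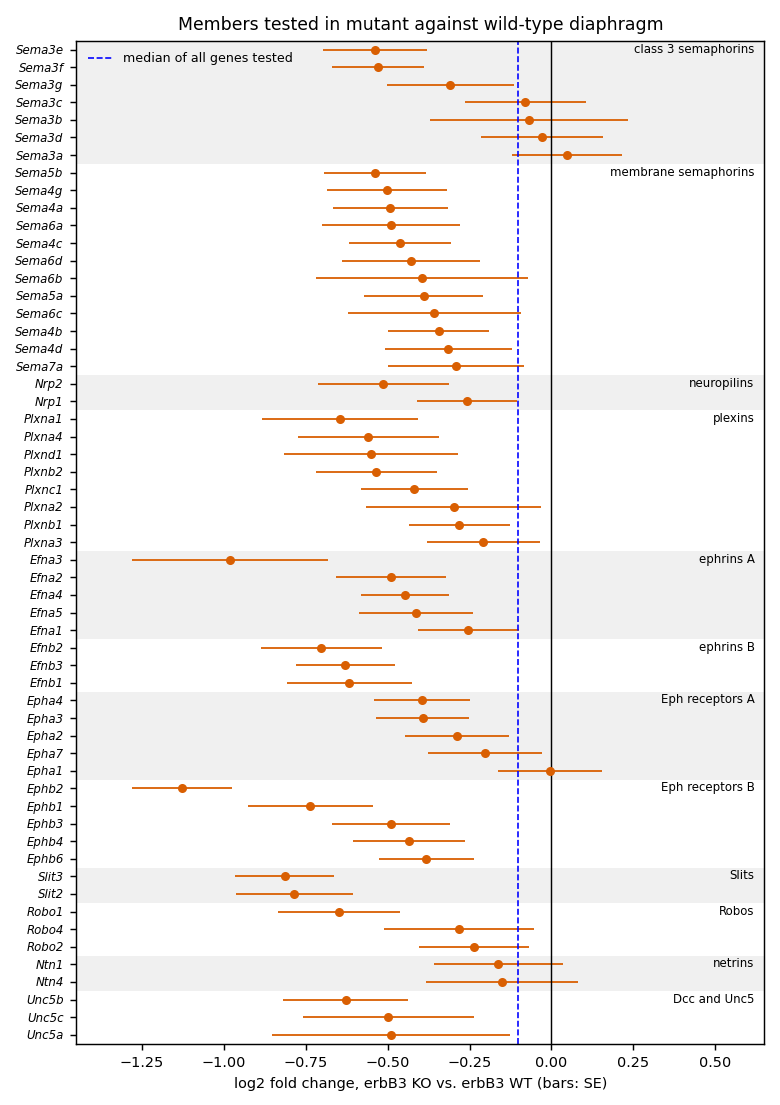
Log2 fold change of each of the 57 members tested, mutant against wild-type diaphragm (points; bars are SE from limma), by family, with a dashed line at the median of all genes tested (-0.10). All points except Sema3a lie below 0 (Sema3b, Sema3c, Sema3d and Epha1 would also lie above 0 with median-ratio scaling, and 10 members in all after adjustment for GC content and length), and Ephb2, Efna3 and the Slits lie farthest to the left.

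Ephb2, a receptor of B ephrins that guides motor and commissural axons, was at 9.61 and 9.38 RPKM in wild-type and 4.51 and 3.67 in mutant libraries. The wild-type values were close to each other and both far above the mutant values. The gene fell by 1.13 on the log2 scale (SE 0.15, limma adjusted p = 0.0493), a ratio of means of 2.32 between wild-type and mutant. The call sits at the threshold and was lost without either wild-type library and without mutant 2. It was also lost with a pseudocount of 1, without the filter, without the variance trend, with all 6 libraries in the fit, and after adjustment for GC content and length, which brought the log2 fold change to -0.66. Ephb1, a related receptor of B ephrins, was at 3.18 and 3.53 RPKM in wild-type and 2.20 and 1.48 in mutant libraries (log2 fold change -0.74, SE 0.19, limma adjusted p = 0.243). All 5 EphB receptors were lower in both mutant libraries than in both wild-type libraries, as 37.4% of all genes were, and their median was -0.49.

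The B ephrins, ligands of these receptors with a signalling tail of their own, had a median of -0.63, and all 3 were lower without overlap between groups, against the same 37.4% of all genes. Efnb2 was at 6.87 and 9.01 RPKM in wild-type and 5.23 and 4.12 in mutant libraries. Its log2 fold change was -0.70 (SE 0.18, limma adjusted p = 0.251). Efnb3 was at 7.21 and 8.51 RPKM in wild-type and 4.76 and 5.02 in mutant libraries, a log2 fold change of -0.63 (SE 0.15, limma adjusted p = 0.191). Efnb1, given above, differed by -0.62 (SE 0.19, limma adjusted p = 0.329). Without mutant 2 the Efnb1 difference was -0.34. None of the 3 passed the adjusted threshold.

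The 5 A ephrins, with a median of -0.45, were also all lower without overlap, as were 37.4% of all genes. The 5 EphA receptors tested had a median of -0.29. Efna3 had the largest difference of the A ephrins and EphA receptors tested, at 4.15 and 5.80 RPKM in wild-type and 1.48 and 3.29 in mutant libraries. The spread within groups was wide (log2 fold change -0.98, SE 0.30, limma adjusted p = 0.320), and the value was -0.52 without mutant 1 and -1.448 without mutant 2. Epha1 was level between the groups, with 5.23 and 4.19 RPKM in wild-type and 4.66 and 4.68 in mutant libraries.

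Slit2 and Slit3, secreted repellents, had the lowest median of any family, -0.80. Slit2 was at 10.3 and 14.1 RPKM in wild-type and 7.24 and 6.37 in mutant libraries (log2 fold change -0.79, SE 0.18, limma adjusted p = 0.171). Slit3 was at 5.79 and 6.40 RPKM in wild-type and 3.43 and 3.07 in mutant libraries (log2 fold change -0.81, SE 0.15, limma adjusted p = 0.111), a difference that was -0.48 after adjustment for GC content and length. Both were lower without overlap between groups, as were 37.4% of all genes, and neither passed the adjusted threshold. In Ribotag libraries Slit2 was at 8.82 and 9.90 RPKM, between the mutant and the wild-type values. Slit1, the third Slit, was under 0.5 RPKM in every library and was not tested. The 3 Robos tested had a median of -0.28, and the lowest value was that of Robo1 (-0.65, SE 0.19, limma adjusted p = 0.297).

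In the semaphorin pathway, all 12 membrane semaphorins, both neuropilins and all 8 plexins tested had a log2 fold change under 0, with medians of -0.41, -0.38 and -0.48, and all of them stayed under 0 with median-ratio scaling. Sema4a is among the 12 by way of the filter, so its direction is no result. After adjustment for GC content and length, Sema6c, Plxna2, Plxna3 and Plxnb1 were above 0, and without mutant 2 Sema6b, Sema6c and Plxna2 were. Plxna1 had the lowest plexin value (-0.65, SE 0.24, limma adjusted p = 0.385). It was -0.25 without mutant 2, -0.18 after adjustment for GC content and length, and -1.05 without mutant 1, where limma called it (adjusted p = 0.0459). Plxnb2 had a value of -0.53 (SE 0.19, limma adjusted p = 0.378), which was -0.26 without mutant 2, -0.14 after the same adjustment and -0.81 without mutant 1. Sema3f, with the values above, had a log2 fold change of -0.53 (SE 0.14, limma adjusted p = 0.261). Sema3e, which binds Plxnd1 without a neuropilin, was at 1.17 RPKM in both wild-type libraries and at 0.649 and 0.647 in mutant libraries (log2 fold change -0.54, SE 0.16, limma adjusted p = 0.309). Sema3a had the only positive log2 fold change of the members tested, 0.05, and those of Sema3b, Sema3c and Sema3d turned positive with the scaling described above. Without mutant 2 or without wild-type 5, Sema3a itself was under 0.

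Netrins had a median of -0.16 and overlapped between the groups. Ntn1 was at 4.54 and 4.35 RPKM in wild-type and 4.81 and 3.18 in mutant libraries, and Ntn4, a netrin of vascular basement membranes, was at 1.30 and 1.17 RPKM in wild-type and 1.47 and 0.740 in mutant libraries. The log2 fold changes of both were above 0 without mutant 2 and after adjustment for GC content and length. The 3 Unc5 receptors tested had a median of -0.50. Unc5b was at -0.63 (SE 0.19, limma adjusted p = 0.318) and lower without overlap, as were 37.4% of all genes. Its value was -0.38 without mutant 2 and -0.23 after adjustment for GC content and length.

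Transcript length, GC content and the mutant 2 library moved with this pattern. The members tested were longer than all genes tested (median 4952 against 3316 bases of the longest annotated transcript) and richer in GC (55.3% against 49.8%). With the genes in 4 equal bins, the median log2 fold change over all genes declined from 0.0018 in the bin of shortest transcripts to -0.19 in the longest, and from 0.03 in the bin poorest in GC to -0.22 in the richest. In every bin the members' median was lower than that of all genes, as low as -0.51. Among genes both in the bin of longest transcripts and in the upper 2 bins of GC content, the median was -0.31 over 1247 genes and -0.54 over 14 members. After each library was adjusted for GC content and length, an analysis added after the data were seen, the members' median was -0.17 and that of all genes 0.01. Under 0 were then 47 of 57 members and 47.1% of all genes, 16 members had an unadjusted p under 0.05 and were lower, as were 4.05% of all genes, and limma called 0 members. The log2 fold change after this adjustment was -0.57 for Slit2, -0.48 for Slit3, -0.39 for Robo1 and -0.23 for Unc5b. It was -0.14 for Plxnb2, -0.18 for Plxna1 and -0.25 for Sema3f, and -0.35 for Efnb1, -0.51 for Efnb2, -0.38 for Efnb3 and -0.50 for Ephb1. Members differed between the mutant libraries by a median of -0.25 (mutant 2 minus mutant 1), against -0.069 for all genes and 0.077 for members between the wild-type libraries. Of 60 members, 47 were lower in mutant 2 than in mutant 1, against 60.2% of all genes. Against either wild-type library, the members' median was -0.22 and -0.32 in mutant 1 and -0.53 and -0.66 in mutant 2. Without mutant 2, 48 of 57 members were under 0, against 63% of all genes. The part of these measures in the members' lower values was not tested beyond this adjustment.

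**Figure D3:**
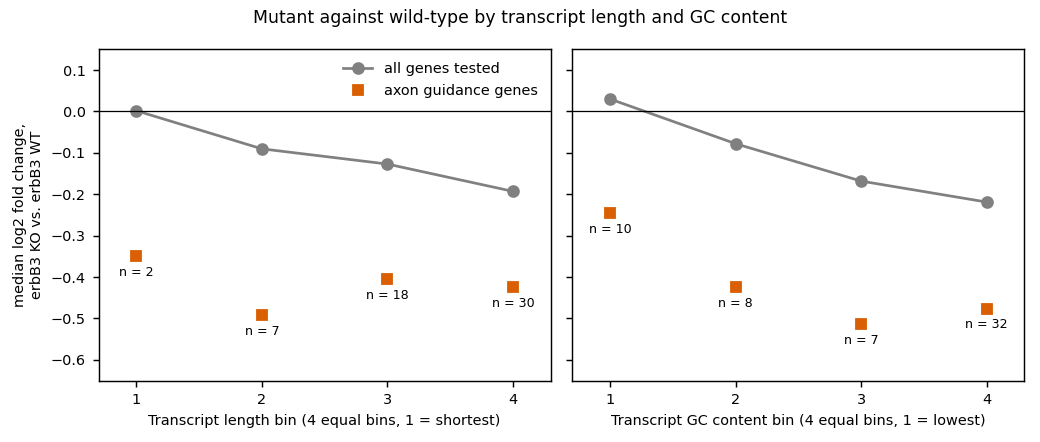
Median log2 fold change of mutant against wild-type libraries in 4 equal bins of transcript length (left) and GC content (right), for all genes tested (grey) and axon guidance genes (orange, n = members per bin). The grey medians decline with length and with GC content, and the orange medians lie below them in every bin.

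Cell type markers moved in the same comparison. The median log2 fold change was -1.29 for the 12 Schwann lineage markers tested and -1.35 for the 11 neuron markers, all of which were under 0. Summed RPKM of the 17 Schwann lineage markers was 68.9 and 62.5 in wild-type and 50.0 and 28.6 in mutant libraries, where Erbb3 made up 21.5 and 11.9. The summed RPKM of 19 neuron markers was 39.9 and 134.5 in wild-type and 27.9 and 32.5 in mutant libraries. Hepatocyte markers had a median of -3.21, endothelial markers -0.13, mural cell markers -0.34 and skeletal muscle markers 0.23. Their part in the guidance genes' values was not tested.

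Ribotag RNA was then compared with whole wild-type diaphragm, which asks which transcripts are held by tagged ribosomes of Wnt1-Cre descendants more than by the muscle as a whole. Guidance genes showed no common direction. The ephrin Efna5, the plexins Plxna4 and Plxnb3 and the netrin receptor Unc5a stood higher in both Ribotag libraries, with an unadjusted p under 0.05, whereas Sema3f, Plxnb2, Epha1, Ephb4 and Efnb1 stood lower in both. The median log2 fold change was -0.16 over the 60 members tested and -0.05 over all 14418 genes, and 36 members were under 0, against 54.4% of all genes.

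No member passed the adjusted threshold in limma, where 0.00694% of all genes were called higher and 0.0 lower. At an unadjusted p under 0.05, 4 members (6.67%) were higher, against 8.19% of all genes, and 5 (8.33%) lower, against 11.3%, so neither share was above that of all genes. Both Ribotag libraries exceeded both wild-type libraries for 13 members (23.3% of all genes) and lay below them for 22 (31.0%). Epha5 passed the filter only through the Ribotag libraries, and Sema4a and Sema7a only through the wild-type libraries, so the directions of these 3 were set by the filter. On the log2(RPKM + 0.5) scale, Efna5 was the one member 2-fold higher in all 4 pairs, as were 1.51% of all genes, and 0 members were 2-fold lower, against 0.825%. In RPKM itself, the lower Ribotag value was 2.14 times the higher wild-type value for Efna5, 2.08 times for Plxnb3 and 2.17 times for Robo3, which was too low to be tested.

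Efna5, a ligand of EphA receptors that repels axons, was at 4.19 and 4.93 RPKM in wild-type and 10.6 and 10.5 in Ribotag libraries. The Ribotag values were nearly equal and more than 2-fold above each wild-type value (log2 fold change 1.14, SE 0.18, limma adjusted p = 0.151). Plxna4, a partner of neuropilins in sensory and sympathetic axons, was at 2.56 and 4.19 RPKM in wild-type and 5.77 and 5.78 in Ribotag libraries (log2 fold change 0.73, SE 0.27, limma adjusted p = 0.242). Because it is not stated that reads were counted by strand, reads of Plxna4 and its opposite-strand transcript Plxna4os1 cannot be told apart. Plxnb3 was at 0.593 and 0.456 RPKM in wild-type and 1.53 and 1.23 in Ribotag libraries (log2 fold change 0.87, SE 0.31, limma adjusted p = 0.235). Unc5a was at 2.81 and 2.44 RPKM in wild-type and 3.69 and 4.85 in Ribotag libraries (log2 fold change 0.60, SE 0.23, limma adjusted p = 0.253). Ntn4 was at 1.77 and 2.52 RPKM in Ribotag libraries, above the wild-type values of 1.30 and 1.17. In each of these genes both Ribotag values lay above both wild-type values, as for 23.3% of all genes, and none was called. The Plxna4 difference was 0.42 without wild-type 5.

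On the lower side, Sema3f had the largest difference (log2 fold change -1.03, SE 0.23, limma adjusted p = 0.171). Epha1, an epithelial Eph receptor, was at 2.14 and 2.40 RPKM in Ribotag libraries against 5.23 and 4.19 in wild-type (log2 fold change -0.91, SE 0.22, limma adjusted p = 0.180). Plxnb2 differed by -0.81 (SE 0.16, limma adjusted p = 0.170), Ephb4 by -0.61 (SE 0.17, limma adjusted p = 0.196) and Efnb1 by -0.72 (SE 0.24, limma adjusted p = 0.223), or -0.43 without Ribotag 2. These 3 were the most abundant members of their families. The markers of fibroblasts (median -0.79), mesothelium (-0.67) and macrophages (-0.88) were lower in Ribotag RNA as well, while those of Schwann lineage (2.93) and neurons (2.30) were higher. The part of these cells in the guidance genes' values was not tested.

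Ribotag replicates differed strongly for several members. Sema5a, which carries thrombospondin repeats, was at 28.1 RPKM in Ribotag 1 and 7.44 in Ribotag 2, against 5.36 and 6.16 in wild-type. Ntn1 was at 18.1 and 5.04 RPKM in Ribotag libraries, against 4.54 and 4.35 in wild-type. Ephb2 was at 20.6 and 7.05 RPKM in Ribotag libraries, so that 1 Ribotag library was above and the other below the wild-type values. Conversely, Epha5, a receptor of A ephrins in the nervous system, was at 0.491 RPKM in Ribotag 1 and 2.60 in Ribotag 2, against 0.298 and 0.341 in wild-type. These genes were chosen after their values were seen. The summed neuron markers were 231 RPKM in Ribotag 1 and 1030 in Ribotag 2, and the summed Schwann lineage markers 231 and 479. Over the 60 members, the median absolute log2 difference between the Ribotag libraries was 0.40, close to the 0.39 of all genes, and larger than the 0.15 between wild-type libraries.

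**Figure D4:**
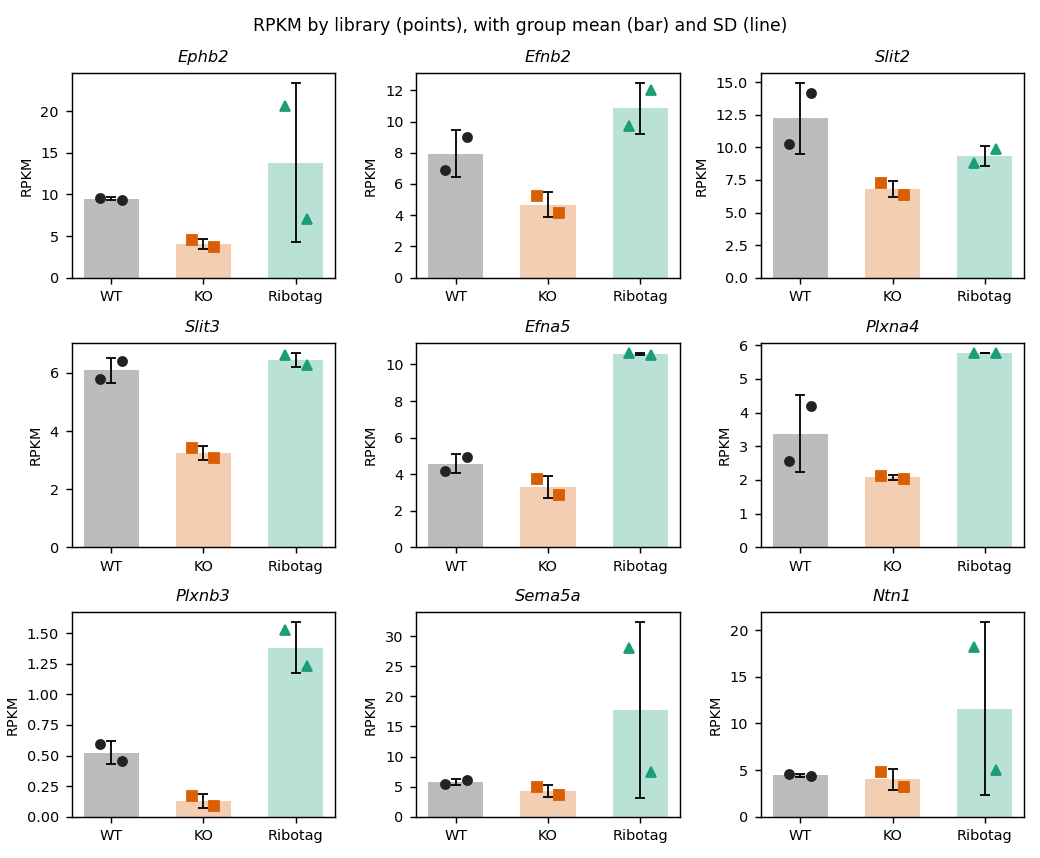
RPKM of 9 axon guidance genes by library (points), with the mean (bar) and SD (line) of each group of 2. Efna5, Plxna4 and Plxnb3 are highest in both Ribotag libraries, while Ephb2, Sema5a and Ntn1 are high in 1 Ribotag library only.

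Compared with mutant diaphragm, the Ribotag libraries contrast RNA held by crest-derived ribosomes with muscle that lacks Schwann cells. More guidance genes had a log2 fold change above 0 than under it: 41 of the 59 members tested were above and 18 (30.5%) under, where 47.0% of all 14325 genes were under. The median was 0.28 over the members and 0.04 over all genes. After adjustment for GC content and length, 32 members were above 0 and 27 (45.8%) under, where 56.5% of all genes were under. Without mutant 2, 34 members were above 0 and 25 (42.4%) under, against 50.9% of all genes under. Efna5 rose and was the only member past the threshold. Plxna4, Efnb2 and Slit3 stood higher in both Ribotag libraries than in the mutant, and Epha1 lower. Markers of other cells moved in this comparison too: the median log2 fold change was 3.62 for 15 Schwann lineage markers (11 called higher), 3.95 for 15 neuron markers (5 called) and 3.06 for 10 hepatocyte markers (9 called), while those of fibroblasts (-0.49), mesothelium (-0.54) and macrophages (-0.61) had medians under 0. Their part in the guidance genes' values was not tested.

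Limma called 1 member higher (1.02% of all genes) and 0 lower (0.175%). At an unadjusted p under 0.05, 12 members were higher, or 20.3%, against 11.8% of all genes, and 1 was lower, against 7.46%. Of the members tested, Sema4f, Plxnb3 and Epha5 averaged under 0.5 RPKM in the mutant and passed the filter only through the Ribotag libraries, and Sema7a passed it only through the mutant libraries. The directions of these 4 were set by the filter, so their places in the counts of this comparison, among them Plxnb3 as 1 of the 12 and the 3 higher ones among the 41 above 0, are no result. Ribotag values exceeded mutant values without overlap for 26 members (29.7% of all genes) and lay below them for 6 (24.4%). Plxna4 and Efna5 were 2-fold higher in all 4 pairs, as was Plxnb3 by way of the filter, against 3.34% of all genes, and 0 members were 2-fold lower, against 0.607%. With GC content and length adjusted, the median was 0.04 for members and -0.08 for all genes, and limma called 0 members (0.432% of all genes in either direction). Efna5 was then 2-fold higher in all pairs, as was Plxnb3 by way of the filter. The share of all genes is not given for this rule after the adjustment, so it is a description only.

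Efna5 was at 3.74 and 2.88 RPKM in mutant and 10.6 and 10.5 in Ribotag libraries, and rose by 1.55 on the log2 scale (SE 0.24, limma adjusted p = 0.0452). The lowest Ribotag value was far above the highest mutant value. The call was lost without either mutant library, without the filter, without the variance trend and after adjustment for GC content and length, while the log2 fold change stayed between 1.39 and 1.71 under all alternatives. Plxna4 was at 2.12 and 2.02 RPKM in mutant and 5.77 and 5.78 in Ribotag libraries (log2 fold change 1.29, SE 0.24, limma adjusted p = 0.0729), or 0.81 after adjustment for GC content and length. Plxnb3 was at 0.167 and 0.0878 RPKM in mutant and 1.53 and 1.23 in Ribotag libraries, a ratio of means of 10.8. Its fold change is given as a description for the reason above (log2 fold change 1.58, SE 0.39, limma adjusted p = 0.122).

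Efnb2 was at 5.23 and 4.12 RPKM in mutant and 9.69 and 11.99 in Ribotag libraries (log2 fold change 1.13, SE 0.25, limma adjusted p = 0.103). Slit3 was at 3.43 and 3.07 RPKM in mutant and 6.63 and 6.28 in Ribotag libraries (log2 fold change 0.89, SE 0.24, limma adjusted p = 0.138), or 0.58 after the same adjustment. Both were above the mutant in all pairs, as were 29.7% of all genes. Nrp2 and Sema6d were also higher without overlap, with log2 fold changes of 0.73 and 0.85 (SE 0.22 and 0.27, limma adjusted p = 0.175 and 0.178), or 0.42 and 0.58 after it. Sema5a and Ephb2 had larger but less even differences of 1.66 and 1.46 (SE 0.57 and 0.47, limma adjusted p = 0.197 and 0.179), which were 0.74 and 0.72 without Ribotag 1. Epha1 was at 4.66 and 4.68 RPKM in mutant and 2.14 and 2.40 in Ribotag libraries (log2 fold change -0.90, SE 0.25, limma adjusted p = 0.148).

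**Figure D5:**
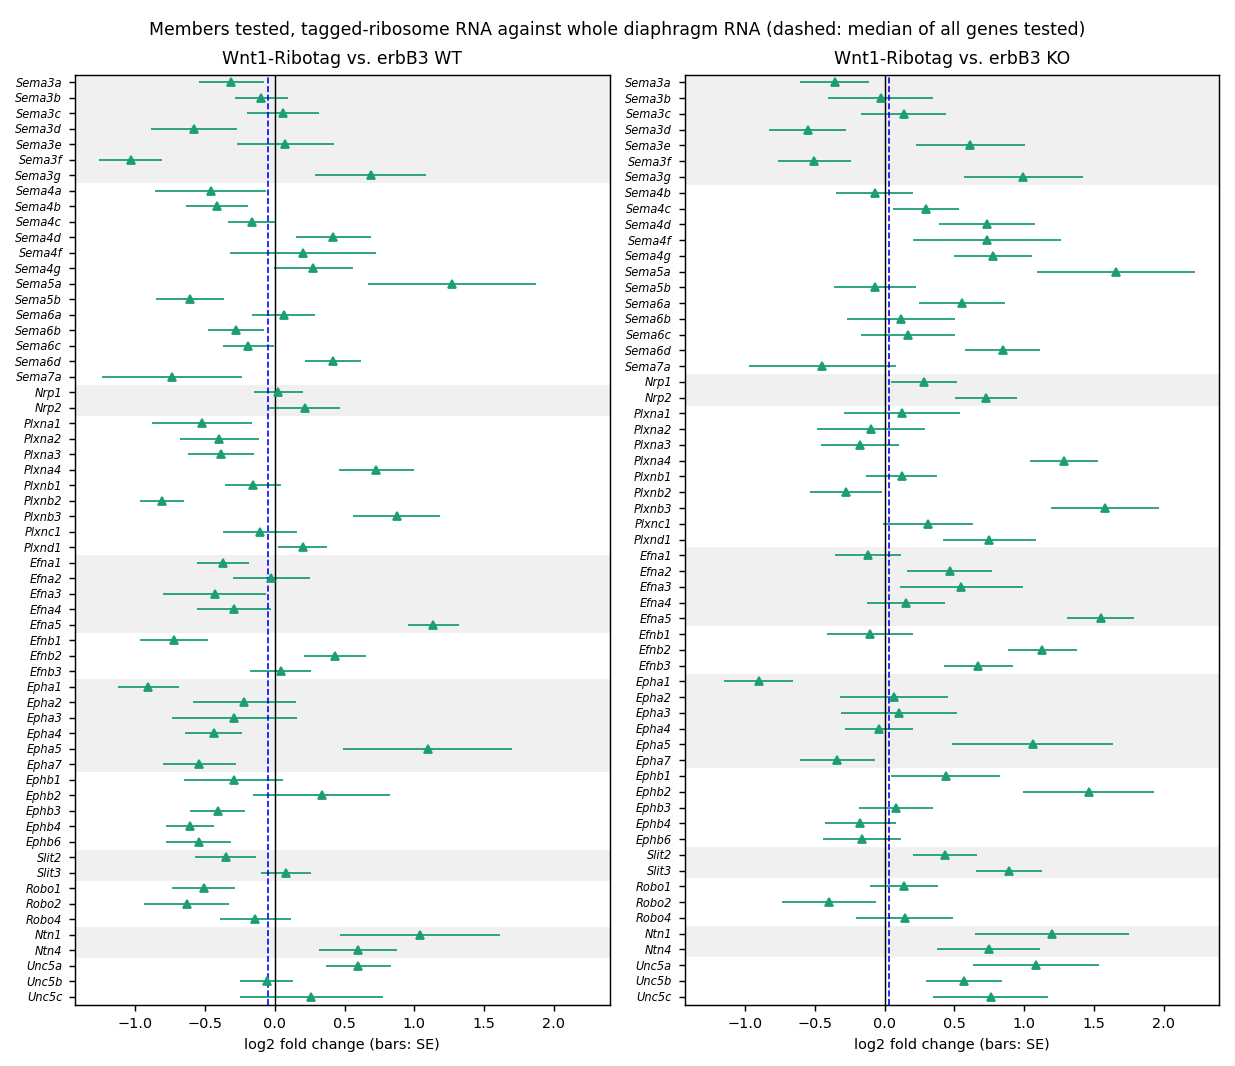
Log2 fold change (points; bars are SE from limma) of the members tested for Ribotag against wild-type (left) and Ribotag against mutant libraries (right), by family, with dashed lines at the medians of all genes. Efna5 lies at 1.14 and 1.55, and Epha1 at -0.91 and -0.90.

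Because both comparisons with Ribotag share the Ribotag libraries, and both comparisons with the mutant share the mutant libraries, their values are given side by side only. Efna5 differed by -0.41 between mutant and wild-type, 1.14 between Ribotag and wild-type and 1.55 between Ribotag and mutant. Ephb2, the member called lower in the mutant, differed by -1.13, 0.34 and 1.46 in the same order. Plxnb2, the most abundant, differed by -0.53, -0.81 and -0.28. A rule added after the values were seen, mutant below wild-type below Ribotag without any overlap, was met by 9 of 60 members (Sema3g, Sema4d, Sema5a, Sema6d, Plxna4, Plxnb3, Plxnd1, Efna5 and Efnb2), against 8.67% of 14320 genes with an average of 0.5 RPKM or more over the 6 libraries. Plxnb3 reached that average only through the Ribotag libraries, so its place among the 9 is no result.

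The genes around these ligands and receptors were described from a list of 60 co-receptors, cytosolic effectors and matrix partners, of which 59 had values. In mutant against wild-type diaphragm, 48 of the 51 tested had a log2 fold change under 0, against 67.0% of all genes, with a median of -0.29, and limma called 0. Flrt1 and L1cam passed the filter only through the wild-type libraries there, so their places among the 48 are no result. In Ribotag against wild-type libraries, 23 of 52 were above 0 and 29 under it (54.4% of all genes), with a median of -0.10, and limma called 0. Draxin passed the filter only through the Ribotag libraries there, so its place among the 23 is no result. In Ribotag against mutant libraries, 35 of 53 were above 0 and 18 under it (47.0% of all genes), with a median of 0.26. Draxin, Flrt1, L1cam and Ntn5 passed the filter only through the Ribotag libraries there, so their places among the 35 are no result. Limma called 2 genes of the list, both higher (1.02% of all genes). These were the axonal adhesion molecule L1cam, at 0.0515 and 0.104 RPKM in mutant and 3.82 and 8.67 in Ribotag libraries (log2 fold change 3.45, SE 0.43, limma adjusted p = 0.0235), which passed the filter only through the Ribotag libraries, so that its call is no result, and Dpysl2, the collapsin response mediator that acts downstream of Sema3a, at 4.06 and 4.17 RPKM in mutant and 16.7 and 13.4 in Ribotag libraries (log2 fold change 1.75, SE 0.23, limma adjusted p = 0.0290). Rgmb, Crmp1 and Dpysl3 were 2-fold higher in all pairs as well (3.34% of all genes), with log2 fold changes of 1.76, 3.10 and 1.75 (SE 0.32, 0.51 and 0.30, limma adjusted p = 0.0666, 0.0514 and 0.0563). L1cam, Crmp1 and Rgmb, like the summed neuron markers, were higher in Ribotag 2 than in Ribotag 1, while Dpysl2 and Dpysl3 were lower. The part of neurons in these values was not tested.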

How the data were processed

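RNA-Seq was analysed in 6 libraries, 2 per group. The authors deposited RPKM per Ensembl gene and a flag that marks genes held at a floor value. The submitters' processing notes list STAR and mm9 without stating their role, and the program behind the RPKM is not given in the sources used here. Of 23076 entries, 3 had no value. Symbols came from GENCODE M21 (GRCm38), which matched 21583 identifiers and not 1490. Depth was read from the floors of 223 microRNA genes, of which 81.2% agreed within 0.0001. The files hold no read counts, so no counting error is given.

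RPKM were tested as log2(RPKM + 0.5) with limma 3.58.1 (lmFit, eBayes with trend) in R 4.3.3, on the 4 libraries of each comparison, for genes whose RPKM averaged 0.5 or more, and adjusted by Benjamini-Hochberg over all genes tested (threshold 0.05). Genes at least 2-fold different in all 4 pairs were counted without a test. No label ties the replicate numbers that Ribotag and mutant libraries share to a common litter or batch, so they were not treated as pairs. Tables were made with Python 3.11.15 and pandas 2.3.3. The script was tested on simulated data. Values in all libraries are given for members called by either rule and for the 2 with the highest mean RPKM per family, and other members were chosen after their values were seen. The members, the marker and partner lists and the tests were chosen with earlier results of these data known. Alternatives were other pseudocounts, filters, scaling, fits and fold thresholds, a replicate block, leaving out each library and, added after the data were seen, adjustment for GC content and length. Promoter sequences came from RefSeq.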

Additional observations from a re-analysis of the deposited data

How the results depend on the processing

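Among all members tested, up to 10 of 57 log2 fold changes changed sign under an alternative in mutant against wild-type libraries. The same held for up to 9 of 60 in Ribotag against wild-type and up to 11 of 59 in Ribotag against mutant libraries. Of the 52 log2 fold changes of members with an unadjusted p under 0.05, a choice that favours a steady sign, 0 changed sign under any alternative run. Of their alternative values, 580 kept their side of the threshold, 40 crossed to pass it and 13 no longer passed it. In mutant against wild-type libraries, the count of members past adjusted p in limma was 1, among 24 of all genes. It became 0 with a pseudocount of 1 (21 of all genes), no filter (0), all 6 libraries in the fit (0), no trend (23), or GC and length correction (6). The median of -0.43 became -0.17 with GC and length correction, and -0.59 to -0.26 when each library was left out. The 2-fold count of 0 (0.399% of all genes lower, 0.0498% higher) became 2 (Ephb2 and Slit3) at 1.5-fold and 1 with a pseudocount of 0.1. The shares of all genes at these other settings are not given, so the counts are a description only.

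In Ribotag against wild-type libraries, the limma count of 0 became 22 without Ribotag 1 and 17 without Ribotag 2 (range 0 to 22), when the lone library is assumed to vary like the others and limma called 4404 and 5857 of all genes. The median of -0.16 became -0.10 with median-ratio scaling. The 2-fold count of 1 (1.51% of all genes higher, 0.825% lower) became 0 at 3-fold, with a pseudocount of 1, or with GC and length correction. At 1.5-fold it became 5, with Efna5 and Plxnb3 higher and Sema3f, Plxnb2 and Epha1 lower. The shares of all genes at these other settings are not given, so the counts are a description only.

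In Ribotag against mutant libraries, the limma count of 1, among 171 of all genes, became 5 (692 of all genes) with all 6 libraries in the fit, 0 without a filter (112) or with GC and length correction (60), and 0 to 16 when each library was left out (107 to 3844). Without the variance trend the 1 member called was Plxnb3 in place of Efna5. The median of 0.28 became 0.045 with GC and length correction, and 0.19 to 0.50 when each library was left out (0.50 without mutant 1). The 2-fold count of 3, all higher (3.34% of all genes higher, 0.607% lower), became 7 at 1.5-fold and 0 at 3-fold. The 2-fold count was 3 to 8 when each library was left out. At 1.5-fold, Plxna4, Efna5, Efnb2, Ephb2, Slit3 and, by way of the filter, Plxnb3 were higher, and Epha1 was lower. No share of all genes is given for this rule at these other settings, so its counts there are a description only. With a replicate block the limma count was 5 (Sema5a, Plxna4, Efna5, Efnb2 and Ephb2), among 842 of all genes. Same-numbered deviations correlated with r = 0.168 across 14325 genes. No label ties a number to a shared litter, batch or day, so the numbers were not treated as pairs, and whether same-numbered libraries share a preparation was not tested. The causes of these changes were not tested. Without read counts, the counting error of the members near the floor could not be given.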
